A study of Mus musculus with 147 samples.

Results

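The transcripts described here were those of the DNA methyltransferase family and its maintenance partner: Dnmt1, Dnmt3a, Dnmt3b, Dnmt3l and Uhrf1. The members were taken by name from the rows of a table of UMI counts (unique molecular identifiers, 1 per captured transcript molecule), and all 5 were found among its 31053 genes. Levels are given as counts per 1000000 UMIs (CPM) of a pool, which is the sum over the cells of 1 class from 1 time-point and 1 replicate. The male germline was sampled at 28 time-points from E6.5 (embryonic day) through birth, PND0 (postnatal day) and the adult, by tagging the 3' ends of transcripts in single cells. The table held 11896 wild-type and 1136 Helq null cells.

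Wild-type animals were offspring of C57BL/6 females and males homozygous for the BVSC transgenes, in which Blimp1 regulatory sequence drives mVenus and Stella regulatory sequence drives ECFP. At E6.5 and E7.5, cells of the epiblast or of the whole embryo were taken without a reporter gate, and from E8.5 to E18.5 cells were sorted as BVSC-positive (BVSC gate) or, from E11.5, also as reporter-negative (Negative gate). From E14.5 the sort used the Stella reporter alone, as the Blimp1 signal declined. Male embryos and gonads were chosen by PCR for Sry at E10.5 and E11.5. Part of the E10.5 cells carry the label None in place of Male, and the methods name no sexing for E6.5 to E9.5. The part of sex in the step from E9.5-E10.5 to E11.5-E13.5 was not tested. Gonads of E13.5 to E16.5 were cut into proximal (P), central (C) and distal (D) parts. After birth cells were picked by germ cell morphology, and cells of PND14 (2N and 4N) and PND30 (1N, 2N and 4N) were also named by DNA content. The Helq null mice descended, through chimeras, from targeted BVSC embryonic stem cells with a small deletion in the first exon of Helq, a DNA helicase gene, on both alleles, and were sampled in the same gates at E11.5 to E15.5 and E18.5. Helq itself was measured from its 3' end, outside the deletion, so its level does not check the genotype: it was 22.8 ± 3.84 CPM (SD, n = 12 pools) in wild-type and 23.6 ± 7.21 CPM (n = 9) in null BVSC cells.

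DNA methylation in mammals is written de novo by DNMT3A and DNMT3B and copied after replication by DNMT1, which UHRF1 brings to hemimethylated sites. DNMT3L has no catalytic activity of its own and stimulates the de novo enzymes. Primordial germ cells lose most methylation while they divide and migrate, and male germ cells regain it before birth, during their arrest as prospermatogonia.

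A filter on genes and UMIs kept 11598 wild-type and 1094 Helq null cells. Of 1825 wild-type BVSC cells kept from E9.5 to E18.5, 1697 fell in clusters with germ cell markers, as did 8 of 572 Negative cells. The clusters were made without the members, and germ cells below are cells of 12 such clusters, before birth also in the BVSC gate. A pool sums over its cells, so fewer cells with a transcript and less of it per cell cannot be told apart in a CPM. Over the 44 germ cell pools of E9.5 to PND14, totals ranged from 12140402 to 117817177 UMIs. The BVSC library of E17.5 replicate 1 stood apart: none of its 72 cells fell in a germ-cell-like cluster, although its summed germ cell markers were at 1359 CPM beside 809 CPM of Sertoli markers, so the germ cell pools do not hold it. The adult replicates also differed in content, and the 2 are given separately. In the study's sample table each wild-type replicate before PND0 pooled more than 1 embryo or gonad and each from PND0 on was 1 gonad, so the gates of a replicate share their source. The sample table does not name the animals, and the study states at least 2 biological replicates, performed independently, for every time-point. The p-values measure the spread between these samples, and in the comparison of stages also that between the time-points of a stage. A set of 96 cell barcodes was reused by all libraries, with no repeat within a library.

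All 5 members had promoters in the RefSeq table used (12 promoters, GRCm38.p6), and 4 are shown for the pairs that share a role: Dnmt1 with Uhrf1 for maintenance, and the internal Dnmt3a promoter with Dnmt3l for the de novo wave. Capitals mark matches, on either strand, to an E2F core (TTTCCCGC, TTTGGCGC, TTTCGCGC or TTTGCCGC) or a GC box (GGGCGG), and no E2F match overlapped a GC box in these sequences.
Dnmt1, chr9:20952574-20952873, minus strand: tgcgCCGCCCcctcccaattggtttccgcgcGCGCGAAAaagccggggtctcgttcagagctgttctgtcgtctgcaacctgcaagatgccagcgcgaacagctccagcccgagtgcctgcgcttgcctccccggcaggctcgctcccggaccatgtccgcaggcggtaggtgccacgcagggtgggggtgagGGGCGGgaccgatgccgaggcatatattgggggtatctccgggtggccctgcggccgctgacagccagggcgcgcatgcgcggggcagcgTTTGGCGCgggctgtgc
Uhrf1, chr17:56304063-56304362, plus strand: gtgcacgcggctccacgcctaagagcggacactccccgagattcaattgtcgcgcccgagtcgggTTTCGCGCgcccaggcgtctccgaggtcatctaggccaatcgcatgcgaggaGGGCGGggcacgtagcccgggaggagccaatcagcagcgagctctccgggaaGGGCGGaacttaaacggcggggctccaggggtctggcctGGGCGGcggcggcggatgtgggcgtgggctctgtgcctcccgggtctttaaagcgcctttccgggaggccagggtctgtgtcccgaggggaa
Dnmt3a, chr12:3891494-3891793, plus strand: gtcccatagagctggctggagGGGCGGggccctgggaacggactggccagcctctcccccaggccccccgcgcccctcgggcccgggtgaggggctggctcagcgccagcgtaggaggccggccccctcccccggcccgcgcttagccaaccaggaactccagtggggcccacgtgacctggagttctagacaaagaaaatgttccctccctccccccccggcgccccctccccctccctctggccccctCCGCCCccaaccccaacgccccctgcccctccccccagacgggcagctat
Dnmt3l, chr10:78042037-78042336, plus strand: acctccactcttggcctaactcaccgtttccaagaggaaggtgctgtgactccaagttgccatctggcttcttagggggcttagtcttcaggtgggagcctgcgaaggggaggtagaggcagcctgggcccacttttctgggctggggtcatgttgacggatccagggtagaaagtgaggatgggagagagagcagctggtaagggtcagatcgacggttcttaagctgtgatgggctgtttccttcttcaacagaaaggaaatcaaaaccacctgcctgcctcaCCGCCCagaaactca
The Dnmt1 sequence held 2 E2F cores and the Uhrf1 sequence 1, and the other 10 promoters of the members held none. Among all 32851 promoters of that length, 2.26% held such a core and 35.7% a GC box, which these 4 sequences all held. CpG dinucleotides numbered 33 in the Dnmt1 sequence, 33 in that of Uhrf1, 18 in that of Dnmt3a and 6 in that of Dnmt3l, against a median of 7.0. These values hold for the sequences shown: the Dnmt3a promoters not shown held 46 and 47 CpG. The Dnmt1 promoters not shown, and a further one of Dnmt3l, held no GC box. A match of letters is a description of the sequence, and 3' tags do not tell which promoter a transcript came from.

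In GENCODE M21 on GRCm38 (mm10), Dnmt1 spans chromosome 9, 20907209 to 20959888 on the minus strand, and Uhrf1 spans chromosome 17, 56303321 to 56323486 on the plus strand. Dnmt3a lies on chromosome 12 at 3806007 to 3914443, Dnmt3b on chromosome 2 at 153649450 to 153687730 and Dnmt3l on chromosome 10 at 78041947 to 78063622, all on the plus strand. Genes on the opposite strand overlap 3 of them: Aire overlaps Dnmt3l, and antisense transcripts overlap Dnmt3a and Dnmt3b. Without knowing whether strand was used in counting, reads of such partners cannot be told apart. In germ cells at E16.5 to PND0 Aire was at 7.61 ± 3.12 CPM (SD, n = 7) where Dnmt3l was at 335.9 ± 97.9 CPM, and at PND1 to PND3 the values were 7.27 ± 5.39 and 57.9 ± 65.5 CPM (n = 6). The antisense transcripts of Dnmt3a and Dnmt3b were at most 1.35 and 3.08 CPM in any of the 44 pools. Dnmt3c, a rodent copy of Dnmt3b, was at most 4.42 CPM on average at any stage, and reads of the 2 copies may have been split between them.

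Before germ cells could be gated, all members were transcribed, and Dnmt3b was high. In the epiblast-like cells of E6.5 replicate 1, the only pool of that class with at least 10 cells, Dnmt3b was at 790.5 CPM, Dnmt3a at 423 CPM, Uhrf1 at 227 CPM, Dnmt1 at 156 CPM and Dnmt3l at 20.6 CPM. In mesoderm-like cells of E6.5 and E7.5 Dnmt3b ranged from 219 to 259 CPM over 4 pools, and Dnmt3a from 114.5 to 147.4 CPM. Visceral endoderm-like cells of the same days held Dnmt3b at 209 to 488 CPM over 6 pools. The 86 germ cells of E8.5, all from replicate 2, held Dnmt3b at 0.61 CPM and Uhrf1 at 13.4 CPM, below every pool above, and Dnmt1 at 185 CPM. Their Dnmt3a, 52.6 CPM, lay inside the 39.1 to 108.1 CPM of the visceral endoderm-like pools of E6.5 and E7.5. The BVSC gate of the other E8.5 replicates held Dnmt3b at 134.6 and 83.5 CPM, and 47 of its 48 cells in replicate 1 were visceral endoderm-like, as were 27 of 48 in replicate 3, beside 21 mesoderm-like cells. No test was made between these early groups.

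From E9.5 to PND14 the members were compared between consecutive stages in 1 edgeR fit over the 44 germ cell pools, in which 23762 genes were tested. Between E9.5-E10.5 and E11.5-E13.5, 1 member was called higher and none lower, where 8.13% of all genes were higher and 5.70% lower. Between E11.5-E13.5 and E14.5-E15.5, 2 members were higher and 1 lower, where 25.3% of genes were higher and 12.4% lower. Between E14.5-E15.5 and E16.5-PND0, 2 members were lower and none higher, with 24.8% of genes higher and 22% lower. At the next step, to PND1-PND3, all 5 members were called, 3 higher and 2 lower, where 16.6% of genes were higher and 10.2% lower. From there to PND4-PND8, 1 member was higher and 1 lower, against 28.4% of genes called in either direction, and from PND4-PND8 to PND10-PND14 no member was called, against 11.4% higher and 7.95% lower. With so few members these counts describe the 5 genes alone. Summed markers of other cell types also moved in these germ cell pools: between E14.5-E15.5 and E16.5-PND0 those of Sertoli cells went from 20.07 to 105.5 CPM (lowest to highest pool) to 122.1 to 227.4 CPM, interstitial markers from 6.47 to 58.6 CPM to 86.8 to 246 CPM, and globin genes from 10.67 to 61.2 CPM to 124.3 to 523.8 CPM. At PND1-PND3 Sertoli markers were at 43.5 to 355 CPM. Their part in the changes was not tested. The scaling mattered for the shares: with library size alone in place of TMM factors, the median log2 fold change of all genes went from 0.22 to 0.42 at E14.5-E15.5, from 0.52 to 0.93 at E16.5-PND0, from -0.18 to -0.31 at PND1-PND3 and from -0.16 to -0.43 at PND4-PND8. The higher calls went with it from 6005 of 8942 to 7271 of 9483, from 5895 of 11133 to 7883 of 10770, from 3952 of 6378 to 3076 of 5996 and from 2967 of 6747 to 1420 of 6899. DESeq2 gave 8098 higher of 11569 at E16.5-PND0, 3289 of 7098 at PND1-PND3 and 1816 of 6449 at PND4-PND8, so folds are relative to the scaling used.

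**Figure D1:**
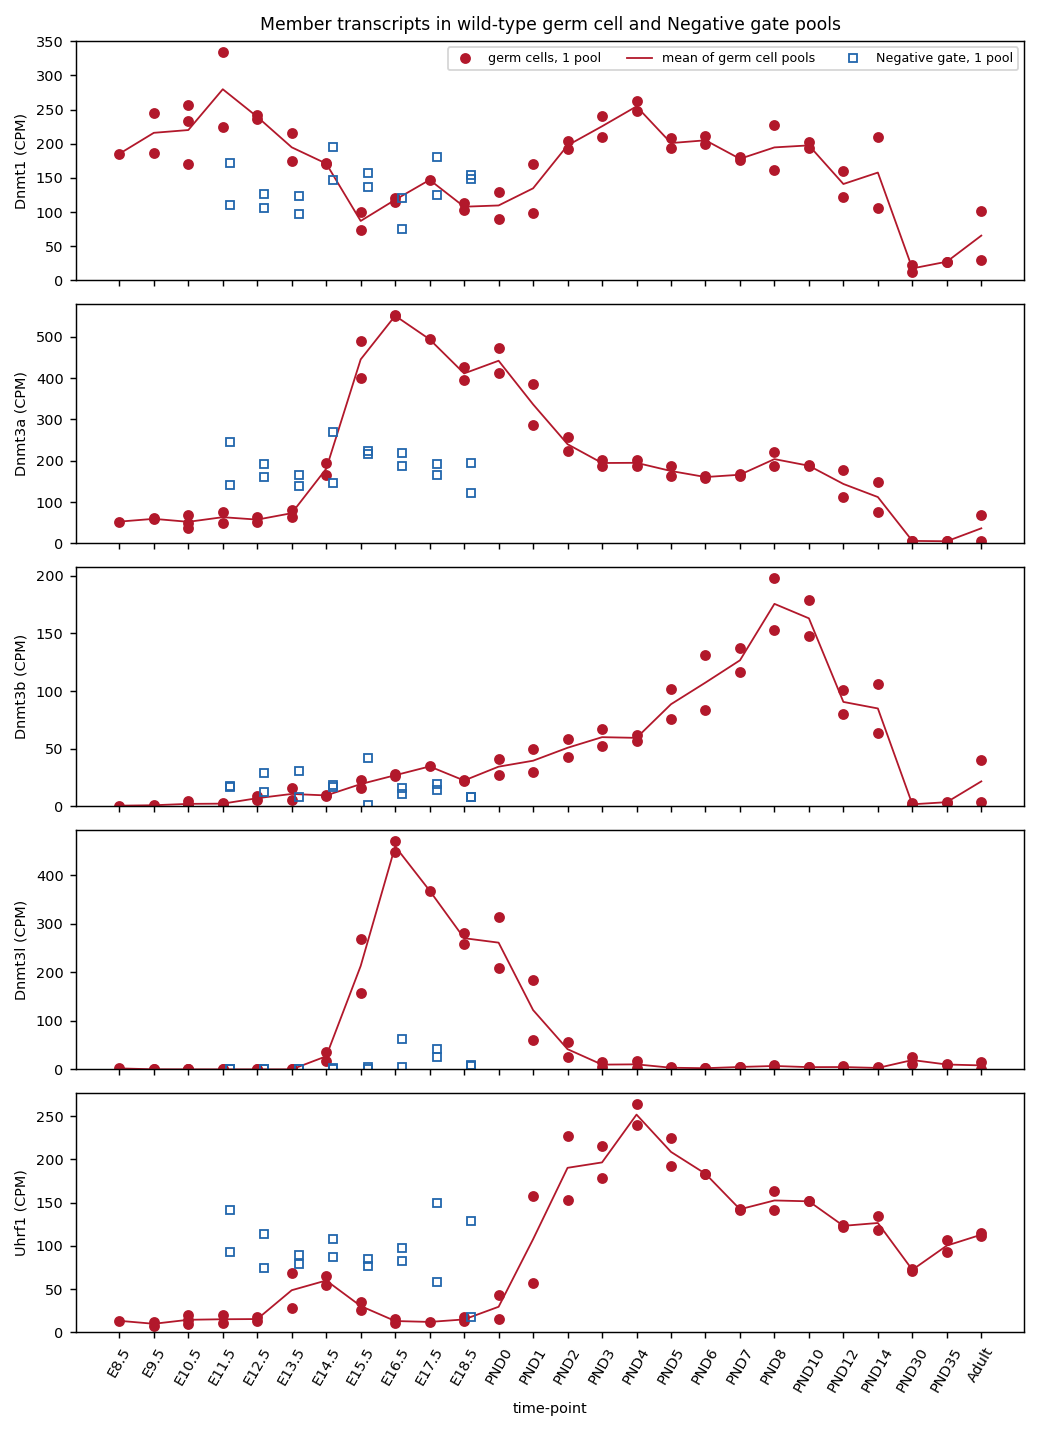
Level of each member in CPM (linear axes from 0) by time-point, with 1 filled point per wild-type germ cell pool, a line through the pool means and open squares for pools of the Negative gate. Dnmt3a and Dnmt3l peaked at E16.5, Uhrf1 at PND4 and Dnmt3b at PND8, while Uhrf1 was at most 69.1 CPM in every germ cell pool before birth.

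Dnmt1, the maintenance enzyme, was present in every germ cell pool, and between E9.5 and PND14 its pools ranged from 73.3 to 335 CPM. It was at 186.8 and 245 CPM at E9.5, between 170.1 and 257 CPM in the 3 pools of E10.5, and at 225 and 335 CPM at E11.5. It reached its lowest prenatal values at E15.5, 73.3 and 100.6 CPM, and was between 90.5 and 147.1 CPM in the 7 pools of E16.5 to PND0. The E15.5 pools lay below every pool of E9.5 to E14.5. At E14.5-E15.5 the log2 fold change from E11.5-E13.5 was -1.04 ± 0.24 (SE; edgeR adjusted p = 0.000803), which did not pass without replicate 2 (adjusted p = 0.0528). A further decrease at E16.5-PND0 (-0.60 ± 0.22, adjusted p = 0.0257) was lost with DESeq2 (adjusted p = 0.338), with library size alone (adjusted p = 0.571) and without either replicate (adjusted p = 0.179 and 0.164), and without E14.5 the change was 0.04. The pools of these stages overlapped, at 73.3 to 171.5 CPM (n = 4) and 90.5 to 147.1 CPM (n = 7).

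After birth Dnmt1 rose by 0.87 ± 0.20 on the log2 scale to PND1-PND3 (edgeR adjusted p = 0.000915; 0.0981 without replicate 1). The PND1 replicates differed, 98.8 and 171 CPM, and the PND4 pools, at 247 and 262 CPM, were the second highest of 26 time-points after E11.5. From there it stayed between 162 and 227 CPM to PND10, and no later step to PND14 passed the test. Ordered by mean level, 16 of 21 neighbouring pairs of time-points with replicates overlapped in range, and the 5 that did not included Adult with PND35 and PND35 with PND30, the lowest of the order.

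Uhrf1, which directs DNMT1 to newly replicated DNA, was at most 69.1 CPM in germ cells before birth. In germ cells of E9.5 to E12.5 it ranged from 7.70 to 20.04 CPM over 9 pools. It was at 69.1 and 28.5 CPM at E13.5, at 55.2 and 64.9 CPM at E14.5, and between 10.7 and 17.3 CPM in the 5 pools of E16.5 to E18.5. The increase from E9.5-E10.5 to E11.5-E13.5 did not pass in the main fit (log2 fold change 1.05 ± 0.37, edgeR adjusted p = 0.0522), nor did that to E14.5-E15.5 (0.61 ± 0.38, adjusted p = 0.212). The decrease to E16.5-PND0 passed (-1.81 ± 0.37, adjusted p = 0.000112), although not without replicate 2 (adjusted p = 0.104) or without E14.5 (adjusted p = 0.0552).

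The postnatal rise of Uhrf1 was 3.41 ± 0.36 on the log2 scale between E16.5-PND0 and PND1-PND3 (edgeR adjusted p = 1.28e-09), and it passed in every alternative run. Its level went from 15.9 and 43.4 CPM at PND0 to 57.7 and 158 CPM at PND1, 154 and 227 CPM at PND2 and 239.5 and 264 CPM at PND4. Each PND1 pool lay above both PND0 pools. From PND7 to PND14 it settled between 118.6 and 164 CPM, and the later steps did not pass (adjusted p = 0.36 and 0.247). The summed level of 11 proliferation genes (Mki67, Top2a, Pcna, Mcm and nucleotide synthesis genes) moved beside these 2 members: it ranged from 2769 to 3758 CPM at E11.5-E13.5, from 795 to 1045 CPM at E16.5-PND0 and from 2211 to 3038 CPM at PND4-PND8. Yet Uhrf1 was at 10.4 to 69.1 CPM in the first of these and at 141.5 to 264 CPM in the last, while Dnmt1 ranged from 174 to 335 CPM and from 162 to 262 CPM. The 11 genes were all lower at E14.5-E15.5 and at E16.5-PND0 and all higher at PND1-PND3, and their part in the levels of Dnmt1 and Uhrf1 was not tested.

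Dnmt3a, a de novo enzyme, rose between E13.5 and E15.5. In 11 pools from E9.5 to E13.5 it lay between 37.8 and 81.5 CPM. It was at 166 and 195 CPM at E14.5, at 401 and 489.7 CPM at E15.5 and at 549 and 553 CPM at E16.5, its maximum, and still at 412 and 472 CPM at PND0. No pool from E9.5 to E13.5 reached the E14.5 values, and the 2 E15.5 pools lay above both of E14.5. The log2 fold change at E14.5-E15.5 was 2.04 ± 0.21 (edgeR adjusted p = 4.09e-10), and it passed in every alternative run.

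Dnmt3a then declined over the first postnatal days, and to PND8 its pools stayed above those of E9.5 to E13.5. It was at 286 and 386 CPM at PND1, at 223 and 257 CPM at PND2 and between 159 and 220.4 CPM in the 10 pools of PND4 to PND8. The decrease to PND1-PND3 was -0.77 ± 0.18 (edgeR adjusted p = 0.00105), lost without replicate 1 (adjusted p = 0.0888) or replicate 2 (adjusted p = 0.0645). By PND14 the replicates read 149 and 74.8 CPM, the lower of them inside the range of E9.5 to E13.5. Germ cells of PND4 to PND8 held Dnmt3a at 180.1 ± 20.4 CPM (SD, n = 10), between the germ cells of E11.5-E13.5 (64.6 ± 12.7 CPM, n = 6) and those of E16.5-PND0 (471.7 ± 63.9 CPM, n = 7).

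Dnmt3b, the other de novo enzyme of the list, was highest at PND8, after Dnmt3a had declined. It was at most 4.86 CPM in the pools of E9.5 and E10.5, between 9.37 and 22.5 CPM at E14.5-E15.5 and between 21.8 and 41.4 CPM at E16.5-PND0. From there it increased to 56.6 and 62.2 CPM at PND4, 116.1 and 137.2 CPM at PND7 and 153 and 198 CPM at PND8, its highest time-point. The PND8 and PND10 pools (147.3 and 179 CPM) overlapped, and both time-points lay above the PND12 pools of 79.8 and 101.3 CPM.

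The early increase of Dnmt3b at E11.5-E13.5 (log2 fold change 1.98 ± 0.44, edgeR adjusted p = 0.00169) depended on which cells were counted. With the BVSC gate alone it was 0.32 (adjusted p = 0.72), and with finer clusters, which left 1 of 5 pools at E9.5-E10.5, 0.40 (adjusted p = 0.995). It was also lost without replicate 1 (adjusted p = 0.273) or replicate 2 (adjusted p = 0.105). After birth the increase to PND1-PND3 was 1.01 ± 0.37 (adjusted p = 0.0361), and that to PND4-PND8 was 1.33 ± 0.36 (adjusted p = 0.0056). The first did not pass with DESeq2 (0.0816), library size alone (0.108) or without replicate 1 (0.266) or 2 (0.225), all as adjusted p. The second did not pass without replicate 1 (adjusted p = 0.0821), replicate 2 (0.224) or PND1 (0.0803).

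Dnmt3l, the catalytically inactive partner, was counted mainly between E14.5 and PND2. Not 1 of its UMIs was counted among 145076555 UMIs of germ cells from E11.5 to E13.5, and 15 were counted in the 5 pools of E9.5-E10.5. At E14.5 it was at 35.9 and 18.2 CPM, at E15.5 at 269 and 157 CPM and at E16.5 at 470.4 and 449 CPM. Against a floor of 3 counts over the E11.5-E13.5 group (0.0207 CPM), the lowest pool of E14.5-E15.5 was at least 880-fold higher (edgeR adjusted p = 2.43e-11). That call held in every alternative run.

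The decline of Dnmt3l spanned birth. It was at 282 and 259 CPM at E18.5, at 208 and 314 CPM at PND0, at 61.1 and 184 CPM at PND1, and at 57 and 26.4 CPM at PND2. The log2 fold change to PND1-PND3 was -2.57 ± 0.56 (edgeR adjusted p = 0.000534; 0.0624 without replicate 1), and a further decrease to PND4-PND8 (-2.97 ± 0.49, adjusted p = 7.26e-05) passed in every alternative run. From PND5 to PND14 it lay between 1.99 and 8.92 CPM. Sertoli-like pools of the same days held 0 to 2.57 CPM. The interstitial and peritubular-like pool of PND14 held 5.19 CPM, above the 3.96 and 1.99 CPM of the germ cell pools of that day.

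**Figure D2:**
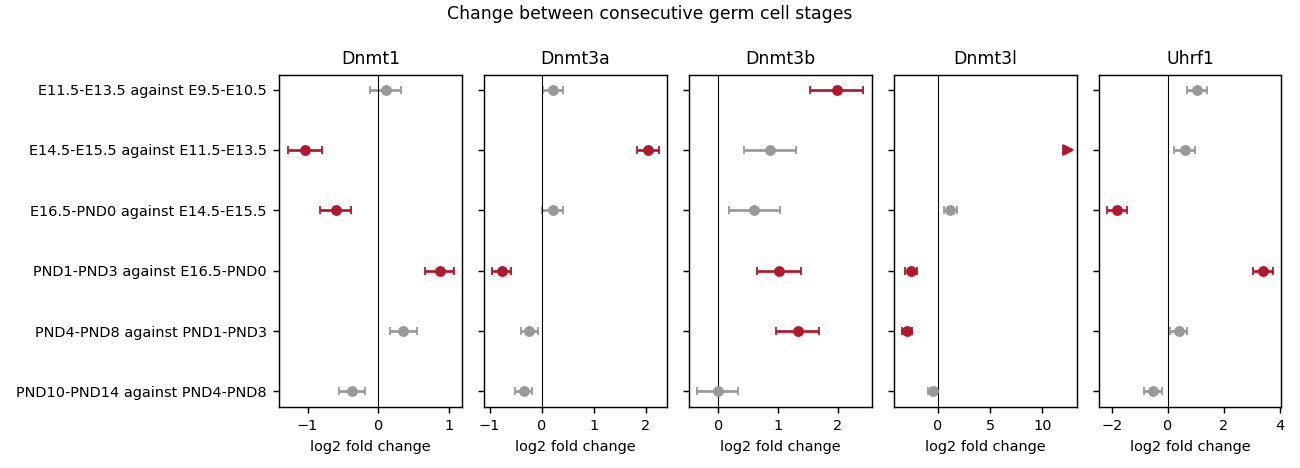
Log2 fold change of each member between consecutive germ cell stages in the edgeR fit (points, with bars of 1 SE), red where the adjusted p was under 0.05 and grey otherwise. The arrowhead for Dnmt3l at E14.5-E15.5 marks its lower bound against the floor, 5809-fold as a mean, and no point is drawn for the step before, where counts were at or near 0.

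Around birth the share of germ cells with Dnmt3l UMIs fell and the share with Uhrf1 UMIs rose. These shares were counted in single cells thinned to 50000 UMIs each, with shallower cells left out. Germ cells of E18.5 had a median of 355389 and 388185 UMIs before thinning, and at full depth most of them held UMIs of both genes. A cell counted below with 1 gene alone may therefore hold the other, as detection depends on level and depth. At E18.5, 67.1% and 65.2% of germ cells had Dnmt3l UMIs without Uhrf1, and none of 70 and 66 cells had the reverse, which allows up to 4.29% and 4.55% by counting error alone. At PND1 the cells with UMIs of both made up 60.8% and 63.6%, and those with Uhrf1 alone 30.4% of 181 cells in replicate 1 and 8.33% in replicate 2. By PND4 none of the thinned cells of either replicate had Dnmt3l alone, which allows a share of up to 1.73% and 2.40%, and 89% and 68% had Uhrf1 alone. At PND1, PND3 and PND4 replicate 1 had the larger share with Uhrf1 alone, and at PND2 replicate 2. In 238 somatic cells of E18.5 to PND4 (median 132561 UMIs before thinning), 14.3% had both and 8.82% Dnmt3l alone. The germ cell shares with both were 10.1% at PND3 and 11% at PND4 in replicate 1, whose pools held Dnmt3l at 4.70 and 3.25 CPM. Somatic pools held it at 0.479 to 2.03 CPM on these days and at 7.95 to 13.4 CPM from E18.5 to PND1, so the somatic share is no matched background for PND3 and PND4.

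**Figure D3:**
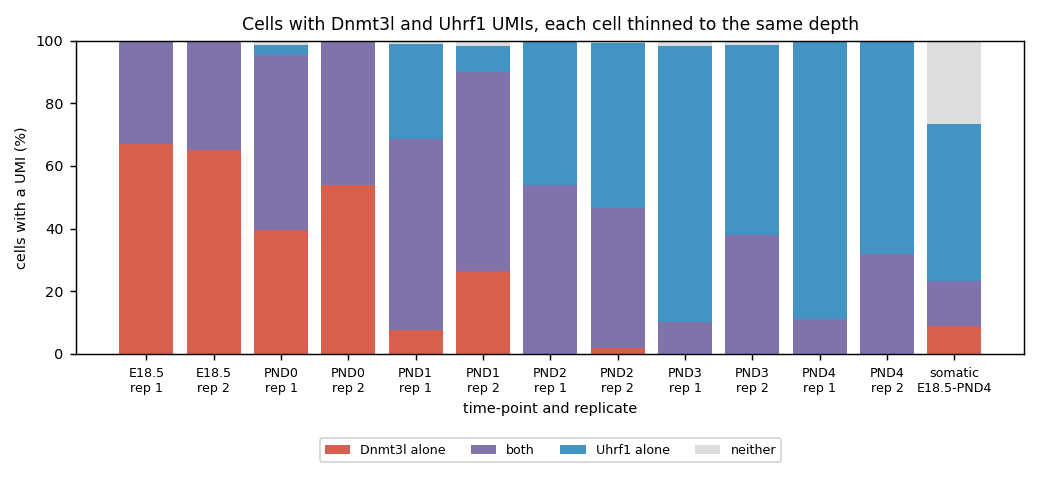
Share of germ cells (%) with a UMI of Dnmt3l alone, of both, of Uhrf1 alone or of neither, for each replicate from E18.5 to PND4 and for somatic cells, after each cell was thinned to 50000 UMIs. The Dnmt3l-alone share went from 67.1% and 65.2% at E18.5 to 0 at PND3, where cells with Uhrf1 alone made up 88.2% and 60.8%.

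At E13.5 and E14.5 more germ cells had Dnmt3a UMIs than Dnmt3l UMIs. Before the increase, at E13.5, 85.4% and 72.6% of the thinned germ cells already had Dnmt3a UMIs and none had Dnmt3l UMIs. The shares therefore do not show which gene rose first. At E14.5, 59.3% and 74.7% of germ cells had Dnmt3a UMIs without Dnmt3l, 35.2% and 23.1% had both, and 2.20% and 0% had Dnmt3l alone. At E15.5, 91.2% and 88.8% had both, and at E16.5 all 89 cells of replicate 1 and 88 of 89 of replicate 2. Among 279 somatic cells sampled between E13.5 and E16.5, 8.24% had both and 84.2% Dnmt3a alone. Detection depends on the level, and at E14.5 the pools held 195 and 166 CPM of Dnmt3a against 35.9 and 18.2 CPM of Dnmt3l.

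Genes that act with the members were followed in 6 lists. Beside the counts below stand the shares over all genes, 25.3% higher and 12.4% lower at E14.5-E15.5, 24.8% and 22% at E16.5-PND0, 16.6% and 10.2% at PND1-PND3, and 28.4% in either direction at PND4-PND8, with splits that moved with the scaling. Of 5 piRNA-guided methylation genes (Piwil2, Piwil4, Mael, Tdrd9 and Spocd1), all 5 were higher at E14.5-E15.5, with a median log2 fold change of 4.39 where that of all genes was 0.22, and Spocd1, which acts with Piwil4, gave 8.82 ± 0.81 (edgeR adjusted p = 4.48e-11). Piwil4 and Tdrd9, which also act in this pathway, gave 4.39 ± 0.54 and 6.30 ± 0.53 (adjusted p = 3.49e-08 and 3.85e-12). None of the 5 was called at E16.5-PND0, and 4 of them were lower at PND1-PND3, Spocd1 by -2.48 ± 0.54 (adjusted p = 0.000429) and Piwil4 by -2.32 ± 0.46 (adjusted p = 0.000129). Of 4 maintenance partners, all 4 were lower at E16.5-PND0, with a median of -1.04 where that of all genes was 0.52. They were Usp7, Hells, Cdca7 and Dppa3, the last a factor that keeps UHRF1 from chromatin, at -3.80 ± 0.54 (adjusted p = 3.31e-07). At PND1-PND3 Usp7, Hells and Cdca7 were higher and Dppa3 was lower again (-3.42 ± 0.54, adjusted p = 3.32e-06). Dppa3 is also known as Stella, the gene of the sorting reporter.

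Among 6 genes of methylation removal, Tet3 was higher at E14.5-E15.5 (4.03 ± 0.45, edgeR adjusted p = 4.59e-09), while Tet1 and Mbd4 were lower. Tet1 fell further at E16.5-PND0 (-3.18 ± 0.40, adjusted p = 2.55e-08), when 4 of the 6 were lower and 1 higher, and fell again at PND4-PND8 (-2.20 ± 0.33, adjusted p = 2.64e-05). The TET enzymes oxidise methylcytosine. Of 3 genes of the methyl donor cycle and tRNA methylation, Mat2a and Ahcy were lower at E14.5-E15.5, all 3 were lower at E16.5-PND0 (Trdmt1, a tRNA methyltransferase, by -1.9996 ± 0.3278, adjusted p = 4.25e-06) and all 3 were higher at PND1-PND3, Ahcy by 2.16 ± 0.19 (adjusted p = 4.82e-11). Of 10 chromatin factors of de novo methylation, 6 were higher and 2 lower at E14.5-E15.5, 1 higher and 4 lower at E16.5-PND0, and 3 higher and 3 lower at PND1-PND3. Kdm1b, a histone demethylase known for imprint setting in oocytes, was higher at E16.5-PND0 (1.62 ± 0.36, adjusted p = 0.000314), and Dnmt3c was lower at PND1-PND3 (-2.90 ± 0.76, adjusted p = 0.0031). Of 6 reader genes, 1 was higher and 3 lower at E14.5-E15.5, 0 and 2 at E16.5-PND0, 1 and 0 at PND1-PND3, and 4 and 0 at PND4-PND8. At PND4-PND8 5 chromatin factors were also higher, as were 2 of 4 maintenance partners, 2 of 3 donor and tRNA genes and 6 of 11 proliferation genes, while 3 removal genes were higher and 1 lower. Spocd1 was lower (-1.67 ± 0.46, adjusted p = 0.00632), and Dppa3 (1.33 ± 0.47, adjusted p = 0.0311) and the reader Zbtb33 (1.2998 ± 0.4849, adjusted p = 0.0399) were higher.

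The first and the last of these steps had fewer calls in the lists. Over all genes, 8.13% were higher and 5.70% lower at E11.5-E13.5, and 11.4% higher and 7.95% lower at PND10-PND14. At E11.5-E13.5, 3 of 5 piRNA-guided genes were higher (Piwil4 by 3.999 ± 0.610, edgeR adjusted p = 9.83e-06, and Mael by 3.99 ± 0.43, adjusted p = 1.83e-08), as were 4 of 10 chromatin factors with 1 lower, among them Ctcfl (3.07 ± 0.70, adjusted p = 0.00212) and Kdm1b (1.61 ± 0.34, adjusted p = 0.000924), and Tet3 was lower (-1.30 ± 0.43, adjusted p = 0.0329). At PND10-PND14 the calls included Tdrd9 (1.10 ± 0.35, adjusted p = 0.0199) and Trim28, which were higher, and Morc1 and Cdca7, which were lower.

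The sorting gates gave a comparison of germ and somatic cells that uses no transcript. Over the 16 BVSC and 16 Negative pools of E11.5 to E18.5, 1 member was higher in the BVSC gate and 1 lower, where 32.9% of 15231 genes were higher and 30% lower. Uhrf1 was lower in germ cells (log2 difference -2.05 ± 0.28, edgeR adjusted p = 2.68e-07). Its lowest, median and highest level was 10.4, 19.01 and 69.55 CPM in the BVSC gate. In the Negative gate the median was 88.05 CPM, the highest 149 CPM, and the lowest pool, E18.5 replicate 2, held 43 Uhrf1 UMIs of 2457656. Dnmt3l was higher (3.96 ± 0.71, adjusted p = 4.72e-05), at 0, 95.8 and 462.5 CPM against 0, 1.28 and 62.3 CPM. Both differences passed in every alternative run, including without E17.5 of replicate 1, an alternative added after the values were seen.

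Averaged over these days Dnmt1, Dnmt3a and Dnmt3b did not pass (adjusted p = 0.562, 0.987 and 0.338) in the BVSC gate against the Negative gate, and the difference changed between E11.5 and E18.5. At E11.5, 4 of the 5 members passed, where 31% of genes did, and Dnmt1 was higher in germ cells (1.01 ± 0.27, edgeR adjusted p = 0.00753) and Dnmt3a lower (-1.59 ± 0.28, adjusted p = 0.000253). At E18.5, 4 passed where 37.6% of genes did, now with Dnmt1 lower (-0.84 ± 0.27, adjusted p = 0.0196) and Dnmt3a higher (1.04 ± 0.28, adjusted p = 0.00688). The change of the difference from E11.5 to E18.5 passed for 3 members, against 22.4% of genes: Dnmt1 (-1.84 ± 0.38, adjusted p = 0.00179), Dnmt3a (2.63 ± 0.40, adjusted p = 0.000131) and Dnmt3b (3.96 ± 1.28, adjusted p = 0.0294). Dnmt3b was lower in germ cells at E11.5 (-2.82 ± 0.92, adjusted p = 0.0241) and did not pass at E18.5 (1.145 ± 0.8918, adjusted p = 0.313). In the Negative gate Dnmt3a ranged from 121.8 to 269 CPM and Dnmt1 from 74.5 to 195 CPM over all 16 pools, where the BVSC gate held 50.3 to 550.0 CPM and 72.8 to 335 CPM. The comparisons at single time-points and of their change were added after the values were seen, and Dnmt3l, at 0 UMIs in both gates at E11.5, gave none. Dnmt3l in the Negative gate was highest in E16.5 replicate 1, at 62.3 CPM beside germ cell markers summing to 328 CPM, where replicate 2 had 5.475 CPM and 46.3 CPM. The part of germ cells in the Negative gate in these levels was not tested.

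Of the list genes in the same comparison, all 5 piRNA-guided genes and all 4 maintenance partners were higher in the BVSC gate, Morc1 by 4.76 ± 0.41 (edgeR adjusted p = 1.04e-10), Piwil2 by 4.09 ± 0.33 (adjusted p = 2.52e-11) and Dppa3 by 4.09 ± 0.39 (adjusted p = 7.99e-10). Dppa3 is the gene of the gating reporter. The chromatin factors gave 6 higher and 3 lower of 10, the removal genes 2 higher and 3 lower of 6, and none of 6 readers was called. Mat2a and Ahcy were lower.

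In Sertoli-like pools after birth, Dnmt1 and Uhrf1 were lower at PND14 than at PND1 and PND2 in each pool, with no test made. There Dnmt1 ranged from 86.4 to 116.4 CPM at PND1 and PND2 and from 26.99 to 36.8 CPM at PND14, and Uhrf1 from 63.2 to 77.7 CPM and from 14.14 to 14.25 CPM. Their summed proliferation genes were at 1754 to 2060 CPM and at 295.6 to 521 CPM. Dnmt3a in these cells was between 65.6 and 203 CPM from PND1 to PND14. Pools of Sertoli-like cells held 10 to 56 cells, so a single value rests on few cells.

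At PND30 the DNA content gates compared haploid 1N cells with 4N cells, which have replicated their DNA and include meiotic spermatocytes. There 1 member was higher in 1N and 2 were lower, where 16.8% of 20269 genes were higher and 12.2% lower. Dnmt1 was at 3.11 and 2.92 CPM in 1N cells and at 25.1 and 33.5 CPM in 4N cells (log2 fold change -3.10 ± 0.64, edgeR adjusted p = 0.00679). Dnmt3b was at 0.21 and 0.12 CPM against 1.51 and 2.56 CPM (-3.40 ± 1.03, adjusted p = 0.0309). Dnmt3a went the other way, at 6.25 and 17.9 CPM against 3.26 and 2.52 CPM (2.29 ± 0.62, adjusted p = 0.0199).

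Uhrf1 was at 55.5 and 28.02 CPM in 1N cells and 97.9 and 89.04 CPM in 4N cells (log2 fold change -0.99 ± 0.36, edgeR adjusted p = 0.056), and Dnmt3l at 29.8 and 24.2 CPM against 17.9 and 8.70 CPM (1.23 ± 0.50, adjusted p = 0.0851). The pools of 1N and 4N did not overlap for any of the 5. The gates of a replicate came from 1 gonad, and with the replicate as a block Uhrf1 and Dnmt3l passed too (adjusted p = 0.0212 and 0.0109), so that 5 members were called. The shares of all genes given for 1N against 4N belong to the fit without that block, so this count describes the 5 genes alone. The 2N gate lay between the others for Dnmt1, at 4.44 and 17.4 CPM. With library size alone in place of TMM, the higher calls among all genes went from 3402 of 5874 to 2604 of 5533. Of the 34 list genes, 31 were tested, of which 4 were higher in 1N cells and 8 lower. Among those lower were Mbd1, which binds methylated DNA (-2.34 ± 0.52, edgeR adjusted p = 0.00949), and the histone methyltransferases Setd2 (-2.41 ± 0.54, adjusted p = 0.0099) and Setdb1 (-2.29 ± 0.55, adjusted p = 0.0132).

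**Figure D4:**
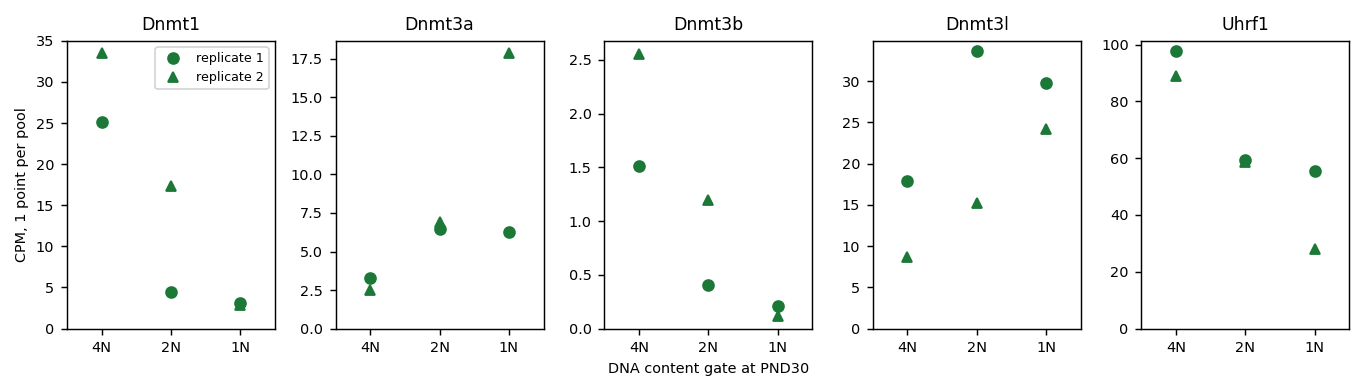
Level of each member in CPM (linear axes from 0) in the 4N, 2N and 1N gates at PND30, with 1 point per pool and a symbol per replicate. Dnmt1 was at 25.1 and 33.5 CPM in 4N and 3.11 and 2.92 CPM in 1N, whereas Dnmt3l was at 17.9 and 8.70 CPM in 4N and 29.8 and 24.2 CPM in 1N.

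The clusters of PND12 to the adult gave levels in cells placed by other genes. In a cluster with raised meiotic markers seen at PND12 and PND14, Dnmt1 was at 40.1 and 35.65 CPM and Dnmt3a at 16.8 and 18.7 CPM. In the cluster led by Pou5f2, of mixed spermatocyte and spermatid markers, Dnmt1 was between 28.7 and 40.5 CPM in the 5 pools of PND30 to adult, and Dnmt3a between 2.135 and 5.15 CPM. In the cluster with all 7 round spermatid markers raised, Dnmt1 was between 1.86 and 7.89 CPM and Dnmt3l between 28.1 and 39.6 CPM over 5 pools, above the 2.79 to 7.54 CPM of the Pou5f2-led cluster. Uhrf1 was between 96.1 and 135.4 CPM in the latter and between 24.6 and 71.9 CPM in round spermatid cells. In the first adult replicate 317 cells formed a separate cluster of spermatocyte markers, with Dnmt1 at 102.4 CPM and Dnmt3a at 69.1 CPM, while the second adult replicate had pools of the Pou5f2-led and round spermatid clusters. Genes of these cells define the clusters, so no test was made between them.

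In Helq null BVSC cells no member was called against wild-type over the 21 pools of the shared time-points. Of 16408 genes, 0.341% were called higher and 0.561% lower. That does not show that the members did not differ, as the fit averages over time-points whose differences can have opposite signs. For Dnmt3a these were 0.31 ± 0.29 at E14.5 and -0.97 ± 0.29 at E15.5 on the log2 scale. The study names Dnmt3l among genes misregulated in null germ cells, from a test over the single cells of a cell population. The pools here hold all BVSC cells of a time-point. The averaged log2 differences were -0.01 ± 0.14 for Dnmt1, -0.12 ± 0.16 for Dnmt3a, 0.94 ± 0.30 for Dnmt3b, 1.08 ± 0.94 for Dnmt3l and 0.41 ± 0.23 for Uhrf1 (edgeR adjusted p = 0.983, 0.841, 0.187, 0.708 and 0.512). Dnmt3b had the lowest adjusted p, and passed without the filter on low counts (adjusted p = 0.0424). Its null replicates at E14.5 were at 69.5 and 19.7 CPM where wild-type had 9.54 and 9.34 CPM (2.17 ± 0.65, adjusted p = 0.331), and at E13.5 at 41.2 and 11.46 CPM against 16.1 and 5.74 CPM. None of the 34 list genes was called. Null and wild-type cells shared 1 of the 15 libraries with null cells, so genotype and library cannot be told apart. The breeding of null and wild-type mice also differed, as given at the start, so genotype and breeding cannot be told apart either.

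By time-point no member passed at E13.5, E14.5 or E15.5, with 2 null pools each, where 0.0670%, 0.171% and 0.512% of genes did. At E11.5, E12.5 and E18.5 the null arm had 1 pool, assumed to vary like the others. The fits there (0.0305%, 0.0183% and 0.0244% of genes called, and 0% for the change of the difference from E11.5 to E18.5) called no member, which does not show that the members did not differ. At E15.5 Dnmt3a was at 196 and 240.5 CPM in null pools and at 489.7 and 399 CPM in wild-type (-0.97 ± 0.29, adjusted p = 0.131), and Dnmt3l at 32.96 and 66.5 CPM against 269 and 156 CPM. Both wild-type pools lay above both null pools for these. Uhrf1 went the other way, at 61.03 and 63.97 CPM in null and 25.56 and 35.29 CPM in wild-type pools (1.08 ± 0.47, adjusted p = 0.291), as did Dnmt1, at 136.1 and 115.6 CPM against 100.6 and 72.82 CPM (0.61 ± 0.32, adjusted p = 0.384). At E14.5 the null replicates stood apart from one another, with Dnmt3l at 10.3 and 87.7 CPM around the wild-type 35.7 and 17.8 CPM. Their summed proliferation genes were at 2575 and 1194 CPM where wild-type had 2018 and 2165 CPM. At E13.5, 1 null pool had Dnmt3l at 14.7 CPM where the other and both wild-type pools were at 0. The proliferation sum of that pool was 2343 CPM, against 3408 CPM in the other null pool. At E18.5 the null pool, with Dnmt3a at 482 CPM and Dnmt3l at 265 CPM, was near the wild-type values of 428 and 383 CPM and of 282 and 248 CPM. The study reports a larger share of germ cells between mitosis and arrest, which it calls transitional, in null gonads at E15.5. It detected no post-arrest germ cells there. The parts of the proliferation level and of such a shift in cell stages in these differences were not tested.

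**Figure D5:**
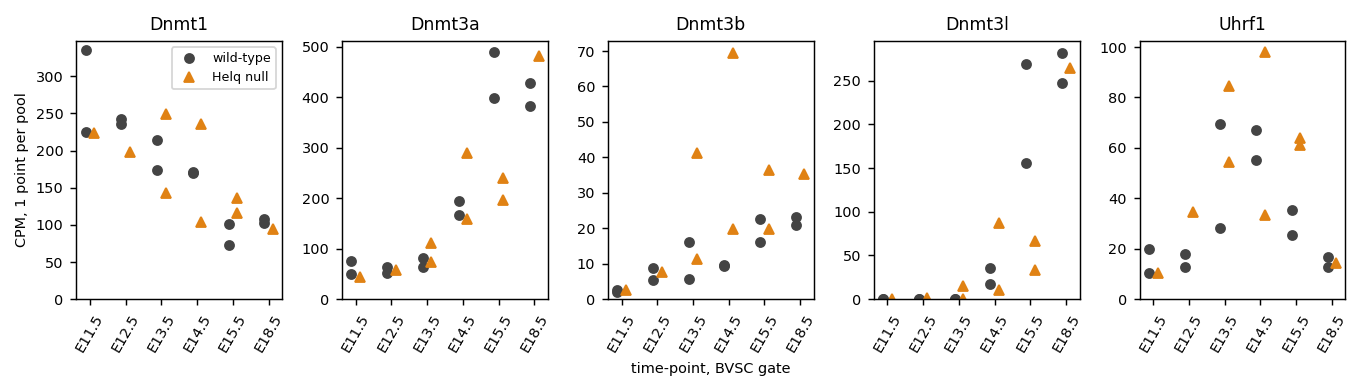
Level of each member in CPM (linear axes from 0) in BVSC cells by time-point, with circles for wild-type and triangles for Helq null, 1 point per pool. At E15.5 both null pools of Dnmt3a (196 and 240.5 CPM) lie below both wild-type pools, and at E18.5 the null pool (482 CPM) lies above them.

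Along the gonad no member was called between distal and proximal germ cells of E13.5 to E16.5 (8 pools each). Of 16091 genes, 0% were higher and 0% lower by edgeR, 252 had an unadjusted p under 0.05, and DESeq2 also called 0. The largest member difference was 0.39 ± 0.23 on the log2 scale for Uhrf1 (unadjusted p = 0.102), and the smallest unadjusted p was that of Dnmt3a (0.18 ± 0.09, p = 0.0475; edgeR adjusted p = 1). Dnmt3l ranged from 0 to 506 CPM in distal and from 0 to 437 CPM in proximal pools, the spread being that of the 4 time-points.

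The genes most like each member were found by the correlation of log2(CPM + 1) over the 44 germ cell pools among 10398 genes with a mean of at least 10 CPM. These pools share their time-points, so the values describe likeness of course only. Dnmt1 was most like Mcm3 (Pearson r = 0.906), Incenp and Mcm4 (both 0.886), Atic (0.862) and Timeless (0.859). Uhrf1 was most like Entpd6 (0.963), Dhdds (0.962), Bik (0.954), Gm26678 (0.936) and Telo2 (0.923), and Dnmt1 ranked 4860th for it (0.203). Dnmt3a was most like Spocd1 (0.968), 4933415A04Rik (0.964), Sptlc2 (0.963), Fam222b (0.962) and Actn3 (0.960). Dnmt3l was most like Jakmip2 (0.965), Pcp4 (0.964), Nme8 (0.962), Spocd1 (0.960) and Pld3 (0.958), and its r with Dnmt3a was 0.937. Dnmt3b was most like Stra8 (0.964), Eif5a2 (0.960), 4933427D06Rik (0.958), Kif1b (0.957) and Mef2b (0.950), and its r with Dnmt3a was 0.519. Over the pools, then, Dnmt3a and Dnmt3l shared their course more closely than Dnmt3a and Dnmt3b did, with no test of that difference.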

How the data were processed

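Single cells were sequenced by STRT-seq, which tags transcript 3' ends. The submitters' processing notes and the study's methods name CASAVA 1.8, UMI-tools, STAR, featureCounts of Subread and mm10. The authors deposited UMI counts per gene and cell with no normalization, and whether strand was used in counting is not given in the sources used here. Time-point, genotype, replicate and gate came from the deposited table of cells, because the labels of the libraries give no groups.

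Cells with more than 2000 genes and 10000 to 1000000 UMIs were kept, the filter of the study's methods. They were clustered without the members, lists and markers (1000 variable genes, 30 principal components, 20 neighbours, resolution 0.3; igraph 0.11.9, Python 3.11.15), and clusters were named from marker lists. No doublet caller was run, since cells were picked or sorted singly. UMIs were summed over at least 10 cells and tested with edgeR 4.0.16 (R 4.3.3; quasi-likelihood test, TMM factors, filterByExpr, Benjamini-Hochberg adjustment over all genes tested, threshold 0.05), with DESeq2 1.42.0 beside it. The test was checked on simulated data. For shares of cells with a UMI, each cell was thinned to 50000 UMIs and shallower cells were left out. Intervals and limits from counts of 0 cover counting error only.

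The members and lists were chosen with earlier results of these data known. In the lists, up to 4 genes per comparison were to be named, those with the largest absolute log2 fold change past the threshold, and other list genes were named after their values were seen. Likeness was taken over genes with a mean of at least 10 CPM, with a pseudocount of 1. Distal and proximal pools, sorting gates and DNA content gates of 1 replicate share gonads or embryos by the study's sample table, so their numbers pair them. Deviations of same-numbered pools from the means correlated at 0.33 to 0.51 between positions, -0.08 to 0.21 between sorting gates and -0.04, 0.21 and 0.66 between the gates of PND30. Alternatives were other scaling, filters, cluster resolution, minimum cells, tools, replicate blocks and leaving out replicates or time-points. Promoters came from the RefSeq table of GRCm38.p6 and loci from GENCODE M21. Protein sequences were not used here, and 1 gene of the lists is not reported by name.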

Additional observations from a re-analysis of the deposited data

Results flagged for a closer look

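In 34 groups of pools, the highest or lowest pool was compared with its group by Dixon's rule. By that rule 5 pools stood far from the others of their group. The rate of about 1 in 20 groups by chance holds for replicates of 1 condition. Each group here was a stage of more than 1 time-point, so that rate does not apply. Within a stage levels changed with time: mean Dnmt3l was 122.3 CPM at PND1 and 9.83 CPM at PND3. The part of the time-point in the 5 flags was not tested. Dnmt3b at E10.5 replicate 3 was at 4.86 CPM, above the other 4 pools of E9.5-E10.5. Uhrf1 stood apart at E13.5 replicate 1, at 69.1 CPM among the pools of E11.5-E13.5, and at PND0 replicate 1, at 43.4 CPM among those of E16.5-PND0. Dnmt3l stood apart at PND1 replicate 2, at 184 CPM among the pools of PND1-PND3, and at PND4 replicate 2, at 17.498 CPM among those of PND4-PND8.

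The difference between the BVSC and the Negative gate changed between E11.5 and E18.5 by a test of the change itself for 3 members, by -1.84 on the log2 scale for Dnmt1, 2.63 for Dnmt3a and 3.96 for Dnmt3b.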

How the results depend on the processing

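Of 610 changes of single members recomputed under the alternatives, 560 kept their side of the threshold, 27 passed only in the alternative and 22 no longer passed (Dnmt3b 11, Dnmt1 6, Dnmt3a 2, Uhrf1 2, Dnmt3l 1). A reversal was counted only where the main run or the alternative passed, and 1 was found: Dnmt1 at E16.5-PND0, to 0.0364 on the log2 scale without E14.5. Changes that passed in neither run are among the 560 even if their sign turned. Of 244 counts, 200 stayed within 1.5 times. The alternatives that leave out E14.5, PND1, E17.5 of replicate 1 or the PND2 pool of 26 cells were chosen after seeing the data. Where the cause of a move is not given by the alternative itself, the cause was not tested.

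Leaving out replicate 1 or 2 gave 6277 to 6296 genes called between the gates, where 9580 were called with both. At E11.5-E13.5 it gave 611 to 795 genes of 3285 and 0 members of 1. At E14.5-E15.5 it gave 3093 to 3895 genes of 8942. At E16.5-PND0 it gave 2503 to 7832 genes of 11133 and 0 to 1 members of 2. At PND1-PND3 it gave 2188 to 2756 genes of 6378 and 1 to 3 members of 5. At PND4-PND8 it gave 80 to 1876 genes of 6747, with 80 without replicate 2, and 1 member of 2. At PND10-PND14 it gave 5 to 3134 genes of 4596, with 5 without replicate 2. For Helq null it gave 10 to 23 genes of 148.

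At E11.5-E13.5 the 1 member called became 3 with DESeq2, 2 with library size alone, mean per-cell CPM, 1 mean per time-point, without PND1 or without E14.5, and 0 with the gate alone or clusters at resolution 1.0, where 283 genes were called. With 1 mean per time-point, 5 members were called at E14.5-E15.5 in place of 3 and 2 at PND10-PND14 in place of 0. That run leaves the spread between the time-points of a stage out of its error. Where no count of genes stands beside them in this paragraph, the counts of members describe the 5 genes alone. Without E14.5, 4681 genes and 0 members were called at E16.5-PND0. Without PND1, 1866 genes and 1 member were called at PND4-PND8. At PND30, 5 members in place of 3 were called with no filter on low counts, mean per-cell CPM or the replicate block (Uhrf1 and Dnmt3l in addition). For Helq null, DESeq2 called 513 genes, no filter 378 genes and 1 member, and the replicate block 57 genes.

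Pools of 1 replicate number correlated at -0.4, -0.44 and -0.24 between genotypes, which share only a number. The block changed no other call of a member. Stage comparisons without the cell filter were not run, since cells that fail it have no cluster, nor was PND30 with 1 replicate left out. Low levels rest on few UMIs, as for Dnmt3b at E9.5-E10.5 and in 1N cells.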
